A study of Homo sapiens with 4 samples.

Results

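FAIRE sites, stretches of nucleosome-depleted DNA recovered after formaldehyde fixation, were examined at 10 imprinted genes (IGF2, H19, CDKN1C, KCNQ1OT1, DLK1, MEG3, GNAS, PLAGL1, PEG3 and GRB10). A site was taken as a member when it lay in, or within 50 kb of, an annotated body of one of these genes. By this rule 22 of 34423 sites were found in H295R/TR SF-1 cells with basal SF-1 expression and 28 of 31219 sites in cells with SF-1 overexpression. H295R is an adrenocortical tumour cell line, and H295R/TR SF-1 is its derivative in which doxycycline induces the nuclear receptor SF-1. Cells of both conditions carried the inducible copy. Overexpression cells received doxycycline for 3 days before fixation and basal cells did not. Each condition had 1 FAIRE library with a list of sites, and the sequencing depth is unknown. Differences between the conditions therefore have no replicate check and no test, and intervals below cover counting error only. The lists hold no expression values, so the identity of the cells was not checked against marker genes, and the parental origin of an accessible copy cannot be read from them.

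Imprinted genes are expressed mainly from the copy inherited from the mother or from the father. The choice is set by control regions whose CpG dinucleotides are methylated on only the maternal or only the paternal copy. At the control region upstream of H19 the insulator protein CTCF binds the unmethylated copy and keeps enhancers beyond H19 from acting on IGF2, which encodes a fetal growth factor that is often highly expressed in adrenocortical carcinoma.

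Of 14 control regions of these genes, defined from general knowledge of the loci, 3 held a FAIRE site, and the same 3 did so in both lists. They were KvDMR1, which contains the promoter of the antisense RNA KCNQ1OT1, the promoter region shared by PLAGL1 and HYMAI, and the promoter region shared by PEG3 and MIMT1. All 3 belong to the 7 regions that are methylated on the maternal copy in the germline. No site was listed at the 2 regions methylated on the paternal copy, nor at the 5 regions that acquire their methylation later. The former are the H19 upstream region and the region of DLK1 and MEG3 known as intergenic. The sites at control regions numbered 5 at basal SF-1 and 4 with overexpression. These regions were short, from 0.679 to 5.929 kb, and the genome held 1.11 basal and 1.01 overexpression sites per 100 kb. No share for other CpG-rich promoter regions is given here, so 3 of 14 cannot be called few or many. A site that is not listed was not called, which does not mean that the chromatin there was closed.

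The reference sequence of 2 of these sites is shown as an example of the DNA at control regions. Both overlap exons of non-coding transcripts, but no annotated UTR or coding sequence. Each is given 5′ to 3′ on the plus strand of GRCh37, with CpG dinucleotides in capitals. The first is the basal-only site of the PLAGL1 promoter region, with 6 CpG dinucleotides, and the second is the basal site at the start of MIMT1 and PEG3, with 12.
PLAGL1/HYMAI, chr6:144328401-144328649: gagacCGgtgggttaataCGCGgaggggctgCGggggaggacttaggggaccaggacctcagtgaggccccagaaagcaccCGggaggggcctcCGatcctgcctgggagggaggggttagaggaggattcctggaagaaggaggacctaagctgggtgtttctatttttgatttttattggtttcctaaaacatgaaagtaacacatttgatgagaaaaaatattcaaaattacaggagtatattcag
PEG3/MIMT1, chr19:57352101-57352299: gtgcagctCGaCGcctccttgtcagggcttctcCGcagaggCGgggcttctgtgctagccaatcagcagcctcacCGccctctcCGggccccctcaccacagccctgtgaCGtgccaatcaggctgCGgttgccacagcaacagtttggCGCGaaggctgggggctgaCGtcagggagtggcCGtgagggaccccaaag

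Each site is described by its width in bp and by its place, which is the deposited peak number as a percentage of the length of the list. A place near 0% means that the site was listed among the first. The quantity that set the order of the lists was not stated. Sites with 1 bp or more in common with the opposite list were counted as shared, and the rest as basal-only or overexpression-only.

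PLAGL1 carried the most sites of the 10 genes, with 10 basal and 9 overexpression sites. DLK1 had 2 and 5 sites. GNAS had 2 and 4, PEG3 3 and 4, MEG3 3 and 2, and KCNQ1OT1 1 and 2. IGF2 and H19 had 1 site in each list, GRB10 had 0 and 1, and CDKN1C had none in either. One shared site between DLK1 and MEG3 lay within 50 kb of both and is given under each. Basal sites were found near 8 of the 10 genes and overexpression sites near 9, beside 78.6% and 78.2% of all protein-coding and long non-coding RNA genes. Over the 1609.08 kb examined, the density was 1.37 basal and 1.74 overexpression sites per 100 kb. Within 50 kb of any protein-coding or long non-coding RNA gene it was 1.33 and 1.22. The PLAGL1 window alone had 4.46 basal and 4.01 overexpression sites per 100 kb, so the density over the other windows was lower than 1.37 and 1.74. Without PLAGL1 there were 12 basal and 19 overexpression sites.

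**Figure D1:**
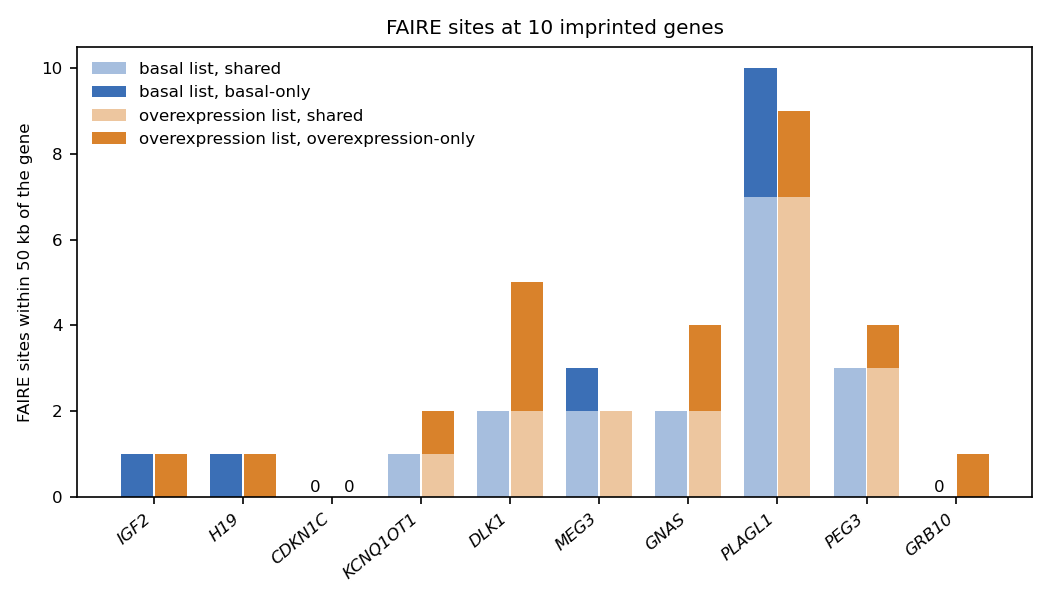
Number of FAIRE sites (vertical axis) within 50 kb of each imprinted gene (horizontal axis) in the basal list (blue) and the overexpression list (orange), with shared sites pale and condition-only sites dark. PLAGL1 stands highest with 10 and 9 sites, CDKN1C has 0 in both lists, and IGF2, H19 and GRB10 have only condition-only sites.

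Of the basal sites at these genes, 16 were shared (72.7%, interval 49.8 to 89.3%) and 6 were basal-only, beside 45.8% basal-only sites in the whole list. Of the overexpression sites, 16 were shared (57.1%, 37.2 to 75.5%) and 12 were overexpression-only, beside 40.3% in the whole list. Both shares thus lay within counting error of their lists. The 16 shared sites were paired 1 to 1. They were distributed over 6 genes (KCNQ1OT1, DLK1, MEG3, GNAS, PLAGL1 and PEG3). A basal-only site was found near 4 genes (40%, beside 54% of all protein-coding and long non-coding RNA genes) and an overexpression-only site near 8 (80%, beside 53.5%). The maps of the loci show where these sites lay.

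**Figure D2:**
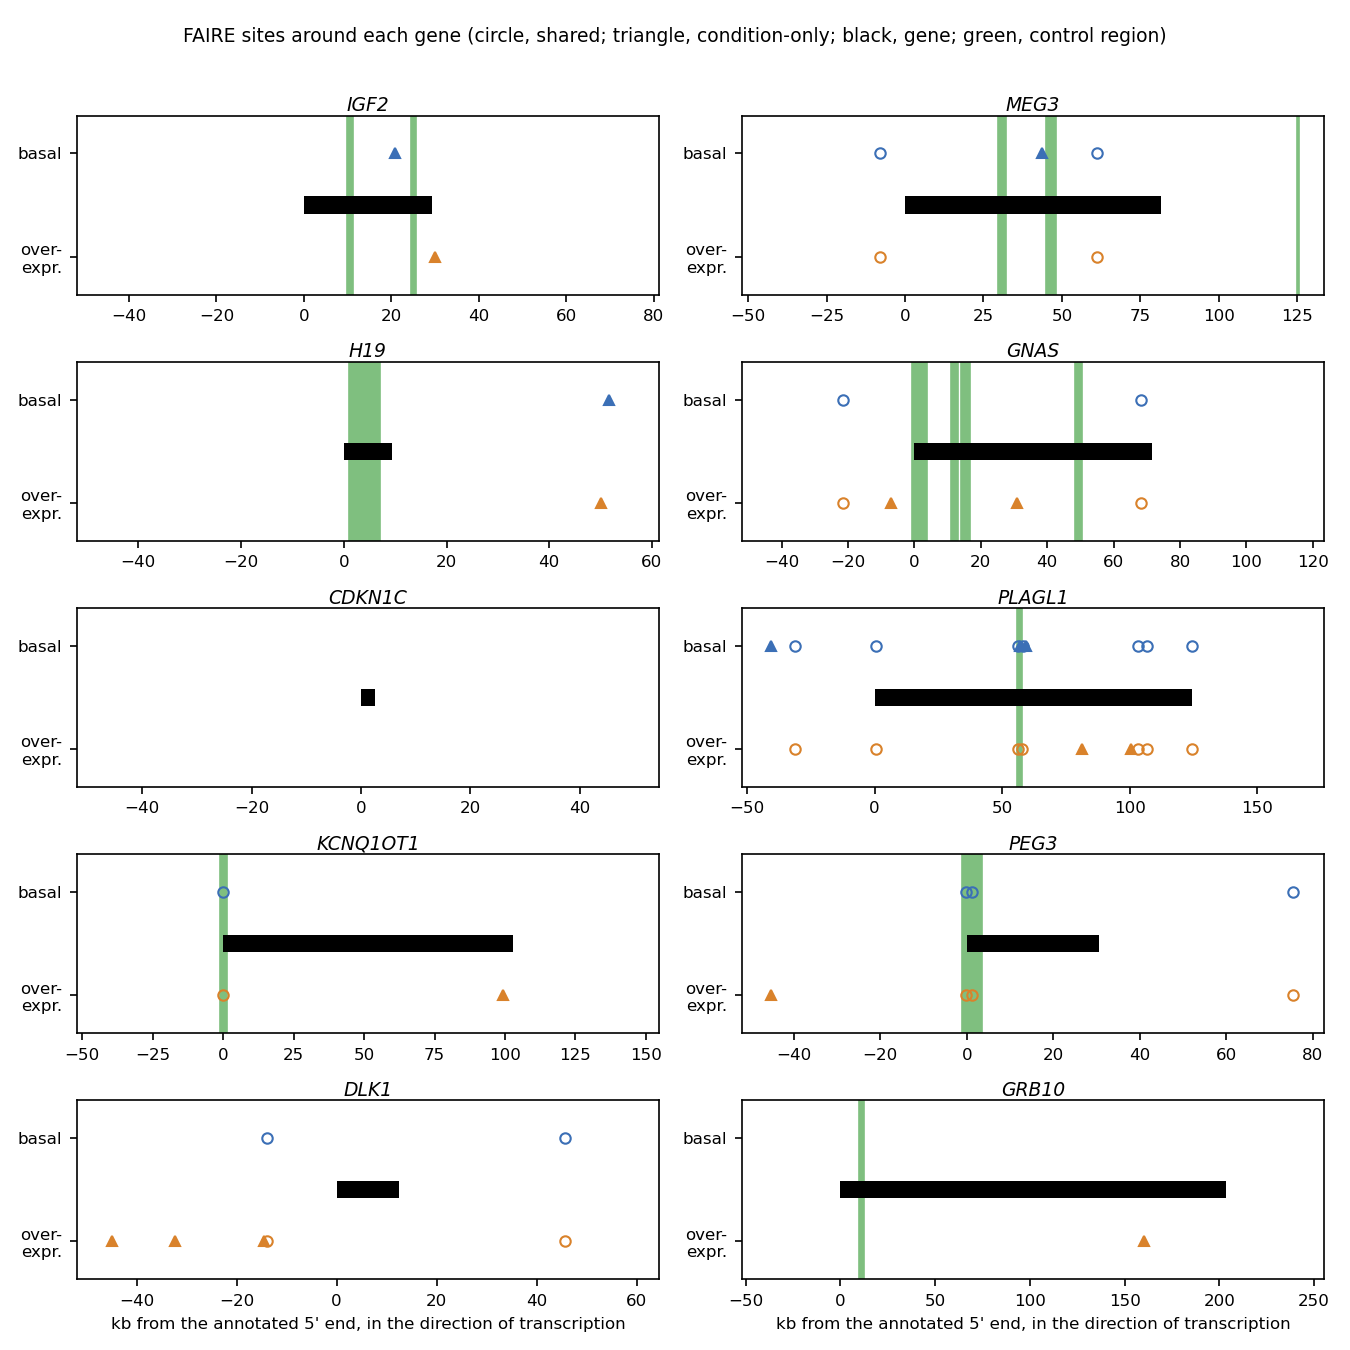
Position of each FAIRE site in kb from the annotated 5′ end of the gene, in the direction of transcription, with basal sites above and overexpression sites below the gene body (black). Circles are shared and triangles condition-only sites, and green bands are control regions. Sites fall on the bands of KCNQ1OT1, PLAGL1 and PEG3 and on no band of the other genes.

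On chromosome 11p15, IGF2 (chr11:2150342-2179621, minus strand) had 1 narrow site in each list, and the pair did not overlap. The basal-only site (chr11:2158601-2158749, 149 bp) lay in an intron at a place of 80.5%, 66 bp upstream of an alternative start of IGF2. The overexpression-only site (chr11:2149651-2149749) was 99 bp wide, stood at a place of 94.8% and lay 593 bp beyond the 3′ end of the gene. Neither came within 1 kb of the canonical start. The distances to the differentially methylated regions DMR0 and DMR2 of IGF2 were 9584 and 3489 bp for the basal site and 18584 and 4242 bp for the overexpression site.

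H19, a long non-coding RNA transcribed from the maternal copy, had its nearest sites inside the neighbouring MRPL23 gene, which encodes a mitochondrial ribosomal protein. They were 1 basal-only site of 99 bp (chr11:1974151-1974249, place 99.6%) and 1 overexpression-only site of 149 bp (chr11:1975651-1975799, place 82.3%), 42147 and 40597 bp from the body of H19. The zone from 1 to 25 kb beyond the 3′ end of H19, where enhancers used by both H19 and IGF2 are known to lie, held 0 sites in both lists. The 124.559 kb between the bodies of H19 and IGF2 held 0 basal sites and only 1 overexpression site, the one just beyond the 3′ end of IGF2.

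The H19 control region, which the annotation used places inside the H19 gene body (chr11:2016396-2025782), was examined for its CTCF recognition sequence. The consensus of its repeats, with up to 1 mismatch, was found 7 times, and every match was on the minus strand. These 7 matches, shown 5′ to 3′ on that strand, are the letters of the insulator at which no FAIRE site was called.
chr11:2020275-2020288: CCGAGAGGCGGCAG
chr11:2021198-2021211: CCGCGCGGCGGCAG
chr11:2021604-2021617: CTGCGCGGCGGCAG
chr11:2022010-2022023: CCGCGTGGCGGCAG
chr11:2023443-2023456: CCGCGCGGCGGCAG
chr11:2023844-2023857: CCGCGCGGCGGCAG
chr11:2024249-2024262: CCGCGCGGCGGCAG

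The nearest site to this region was 44563 bp away at basal SF-1 and 43013 bp away with overexpression. This consensus, chosen after the sites were seen, occurred in 0.831% of all basal and 0.980% of all overexpression sites. Among the sites at the imprinted genes, 1 in each list held it (4.55% of the basal and 3.57% of the overexpression sites), with 2 matches in the shared site at the upstream promoter of PLAGL1.

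CDKN1C, which encodes a cyclin-dependent kinase inhibitor that restrains growth, had no site within 50 kb. The nearest ones lay 106546 bp (basal) and 106496 bp (overexpression) away, over the start of NAP1L4.

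KCNQ1OT1 is the paternally transcribed antisense RNA that silences its neighbours in cis. Its promoter site was shared and changed in both measures. In the basal list it was 199 bp wide at a place of 64.9%, and in the overexpression list it was 349 bp wide at 2.94%. The edge of the wider site was 18 bp from the start of the transcript. A further site, overexpression-only, lay inside the gene 99213 bp from its start (chr11:2621751-2621999, 249 bp, place 57.4%) and contained no CpG.

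Across the whole stretch of 990.61 kb from 50 kb beyond H19 to 50 kb beyond CDKN1C, each list held 5 sites, or 0.505 per 100 kb, beside 1.33 and 1.22 near genes in general. The stretch was delimited after the sites were seen. Of the 5, 2 were shared in each list, at KCNQ1OT1 and over the start of TSSC4 (499 bp in both lists, places 24.7% and 18.5%).

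On chromosome 14q32, DLK1, a paternally expressed membrane protein related to Notch ligands, had sites only outside its gene body. The nearest was shared. Its basal form (249 bp, place 76.3%) ended 13793 bp upstream of DLK1, and its overexpression form (349 bp, place 20.6%) ended 13743 bp upstream. Beside it, at chr14:101177351-101177599, stood an overexpression-only site of 249 bp at a place of 52.5%. Farther upstream there were 2 more overexpression-only sites, 1 of 499 bp (chr14:101159551-101160049, place 27.8%) and 1 of 149 bp (chr14:101147001-101147149, place 69.3%). DLK1 thus had 3 overexpression-only and 0 basal-only sites.

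The shared site between DLK1 and MEG3 had the same ends in both lists (chr14:101237551-101237799, 249 bp), at places of 37.1% and 27.3%. It lay 7948 bp upstream of the outermost of the 34 annotated start positions of MEG3. The MEG3 promoter region lies farther downstream, inside the long annotated gene body. MEG3, a maternally expressed long non-coding RNA, had 1 basal-only site in an annotated intron (chr14:101289301-101289599, 299 bp, place 71.9%). This site was 2836 bp upstream of the nearest MEG3 start and 925 bp from the MEG3 promoter region. MEG3 also had 1 shared intron site, which went from 199 bp at a place of 83.0% (chr14:101306801-101306999) to 349 bp at 7.47% (chr14:101306801-101307149). The control region of this domain known as intergenic was 11243 bp from the nearest basal site and 28743 bp from the nearest overexpression site. The annotation used places it inside the long MEG3 gene body (chr14:101245747-101327368).

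GNAS encodes the stimulatory G protein subunit that couples the ACTH receptor to cAMP, and it has several imprinted promoters. None of its 4 control regions held a site. The nearest sites were between 17650 and 35606 bp away in the basal list and between 6140 and 17616 bp away in the overexpression list. A shared site at the microRNA gene MIR298, upstream of GNAS, was 349 bp wide at a place of 71.8% in the basal list (chr20:57392951-57393299) and 499 bp wide at 0.746% in the overexpression list (chr20:57392851-57393349). Another shared site had the same ends in both lists (chr20:57482851-57483149, 299 bp, places 5.33% and 16.8%) and covered an exon and an alternative start of GNAS. Of the 2 overexpression-only sites, 1 lay in an intron of GNAS-AS1 (chr20:57407801-57407899, 99 bp, place 97.8%) and 1 in an intron of GNAS (chr20:57445401-57445649, 249 bp, place 28.4%).

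PLAGL1, a paternally expressed zinc finger protein that limits growth, is annotated with 27 transcripts and 21 start positions over 124.3 kb. In the promoter region shared with HYMAI, the shared site was 199 bp wide in the basal list (chr6:144329351-144329549, place 36.1%) and 249 bp wide in the overexpression list (chr6:144329351-144329599, place 14.6%). It covered PLAGL1 start positions and held 24 and 32 CpG dinucleotides, a ratio of observed to expected CpG of 0.938 and 0.941. The neighbouring site printed above (249 bp, place 64.3%) was basal-only. Within HYMAI there followed a shared site, which went from 299 bp at 52.8% (chr6:144327551-144327849) to 149 bp at 96.5% (chr6:144327751-144327899), and a basal-only site of 249 bp (chr6:144326201-144326449, place 44.2%).

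The upstream promoter of PLAGL1 had a shared site, of 199 bp at basal SF-1 and 149 bp with overexpression (places 58.0% and 53.6%), 299 and 349 bp from the nearest start. Beside an internal alternative start of PLAGL1, 2 bp away, a shared site of 149 bp had the same ends in both lists (chr6:144282551-144282699, places 66.4% and 58.5%). A site 3500 bp from that start at basal SF-1 went from 199 to 349 bp at places of 51.8% and 48.1%. The 2 overexpression-only sites were intronic and among the widest of the gene, at 399 bp (chr6:144285201-144285599, place 5.42%) and 449 bp (chr6:144304101-144304549, place 19.7%). The former lay 406 bp from another internal start. Just past the 3′ end of the gene, a shared site went from 199 bp at 17.1% to 149 bp at 55.3%. In the flank beyond the 5′ end, SF3B5, a splicing factor gene that is not among the imprinted genes examined, carried a shared site of 399 bp over its start (chr6:144416651-144417049, places 1.00% and 0.871%). A basal-only site of 249 bp lay 9391 bp upstream of SF3B5 (place 51.1%).

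PEG3, a paternally expressed zinc finger protein, had the widest site of either list among the imprinted genes. It lay in the first part of the gene, in an intron shared with ZIM2, and was 999 bp wide in the basal list (chr19:57350401-57351399, place 15.5%) and 1199 bp wide in the overexpression list (chr19:57350201-57351399, place 27.6%). The second site of this control region, at the start of MIMT1 and 5 bp from a start of PEG3, was 199 bp wide at a place of 61.5% and 249 bp wide at 22.6%. A shared site at the start of a long non-coding RNA gene beyond ZIM2 was 199 and 249 bp wide at places of 49.5% and 69.6%. An overexpression-only site of 199 bp (chr19:57397351-57397549, place 91.2%) lay 35837 bp from the nearest start of any gene.

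The wide PEG3 site held clustered matches to AAGATGGC, a core of the recognition sequence of YY1, a zinc finger protein known to bind repeats at this locus. There were 4 matches in the basal and 5 in the overexpression site, and all 5 were on the plus strand. The motif, searched on both strands and chosen after the sites were seen, occurred in 2.63% of all basal and 2.78% of all overexpression sites. Only 2 overexpression sites in the list had this width of 1199 bp, of which 50% (this site) held it. The stretch of 300 bases with the most matches is shown because the repeats can be read in it, with the 3 matches in capitals.
PEG3 intron, chr19:57350204-57350503, plus strand: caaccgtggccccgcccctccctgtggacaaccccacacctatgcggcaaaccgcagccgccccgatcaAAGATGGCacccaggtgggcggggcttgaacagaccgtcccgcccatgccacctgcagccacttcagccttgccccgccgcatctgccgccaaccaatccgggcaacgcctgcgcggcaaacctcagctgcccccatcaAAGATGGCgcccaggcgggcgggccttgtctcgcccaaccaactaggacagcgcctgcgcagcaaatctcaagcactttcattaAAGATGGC

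GRB10, an adaptor protein that restrains insulin and IGF receptor signalling, had no basal site within 50 kb, the nearest being 139511 bp from the gene body. Its only site was overexpression-only, in an intron (chr7:50700701-50700849, 149 bp, place 48.4%), 147877 bp from its internal control region.

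Next, the 16 overlapping pairs were compared by place and width. In the overexpression list 4 pairs stood at least 50 percentage points earlier than in the basal list, which is 25%, beside 2.45% of the 18704 overlapping pairs of the whole lists. These were the KCNQ1OT1 promoter site (62.0 points earlier), the site upstream of DLK1 (55.8 points), the MEG3 intron site (75.5 points) and the MIR298 site upstream of GNAS (71.1 points). No pair stood 50 points or more later, beside 3.91% of all pairs. The limit of 50 points was chosen after the places were seen. All 4 sites were also wider in the overexpression list, by 100 bp at DLK1 and by 150 bp at the others. Of the 16 pairs, 9 were wider in the overexpression list, 4 equal and 3 narrower, whereas among all pairs 36.2% were wider, 26.5% equal and 37.3% narrower. The median shift was 6.22 points earlier, beside -0.902 points over all pairs. Among PLAGL1 pairs the shift ranged from 43.7 points later to 21.5 points earlier, so that no PLAGL1 pair took part in the large shifts.

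**Figure D3:**
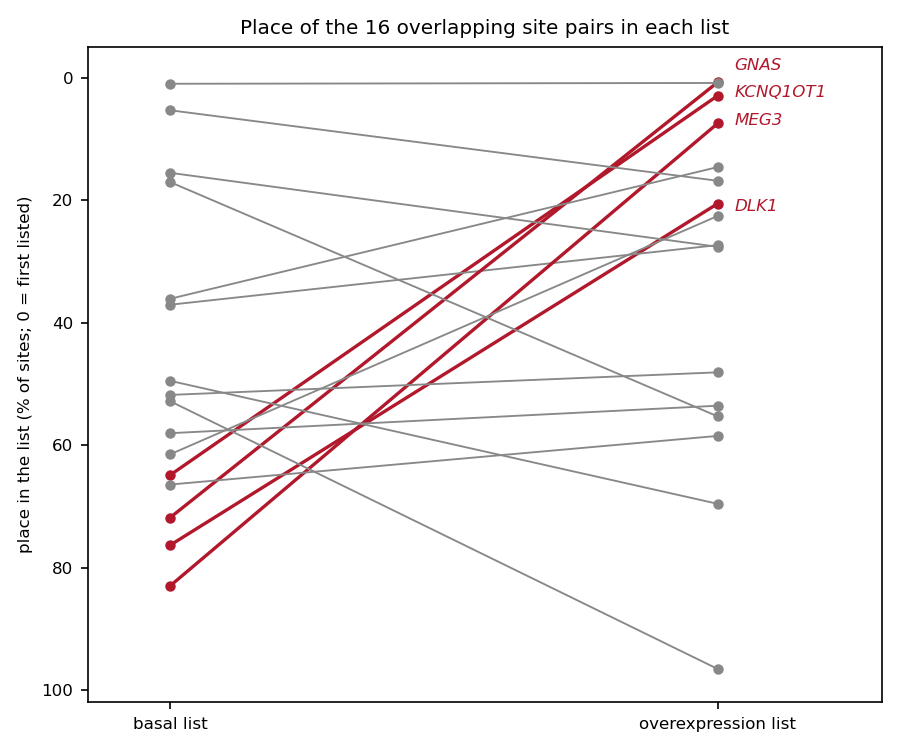
Place of each of the 16 overlapping site pairs in the basal list (left) and the overexpression list (right), in % of sites with 0 for the first listed. The 4 red lines are pairs that stood at least 50 points earlier with overexpression, at GNAS (71.8 to 0.746%), KCNQ1OT1 (64.9 to 2.94%), MEG3 (83.0 to 7.47%) and DLK1 (76.3 to 20.6%), and grey lines are the other 12 pairs.

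The sequences of the DLK1 and MEG3 sites are shown because these sites moved most in the lists outside a control region and without a match to the motifs below. They are given on the plus strand over the width of the basal site, with CpG dinucleotides in capitals.
DLK1 upstream, chr14:101178001-101178249: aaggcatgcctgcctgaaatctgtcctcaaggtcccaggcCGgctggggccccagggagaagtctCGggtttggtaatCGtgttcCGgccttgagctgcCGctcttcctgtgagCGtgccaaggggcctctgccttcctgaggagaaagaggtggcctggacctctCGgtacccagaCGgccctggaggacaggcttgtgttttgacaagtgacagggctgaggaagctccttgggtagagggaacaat
MEG3 intron, chr14:101306801-101306999: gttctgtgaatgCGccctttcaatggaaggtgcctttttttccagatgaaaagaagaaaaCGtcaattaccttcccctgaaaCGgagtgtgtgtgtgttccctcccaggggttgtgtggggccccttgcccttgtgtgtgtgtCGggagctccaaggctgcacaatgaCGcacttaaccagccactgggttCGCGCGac

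Motifs were then searched on both strands of every site. The CTCF consensus, with up to 1 mismatch, was found in 1 of 22 basal sites (4.55%, interval 0.115 to 22.8%), beside 17.5% of all basal sites, and in 3 of 28 overexpression sites (10.7%, 2.27 to 28.2%), beside 16%. The intervals contain the value of the whole list in both conditions, so a lower share at the imprinted genes was not detectable with these numbers. The 3 matches are shown in capitals with 15 bases on either side on the plus strand. The first lay in the shared site past the 3′ end of PLAGL1, the second in the overexpression-only intron site of GNAS and the third, on the minus strand, in the site of GRB10.
PLAGL1, chr6:144261304-144261345: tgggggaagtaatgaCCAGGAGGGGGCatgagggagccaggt
GNAS, chr20:57445497-57445538: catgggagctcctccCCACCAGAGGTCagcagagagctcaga
GRB10, chr7:50700774-50700815: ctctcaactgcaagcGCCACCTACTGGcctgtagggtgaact

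No match to this CTCF consensus was found in a site at a control region. In the H19 control region the same consensus had 1 match, which overlapped none of the 7 repeat matches printed above. It can therefore miss CTCF sequences of that kind, and its absence from a site does not show that CTCF sequence is lacking. For sites of the same width, the consensus was found in 22.2% of basal sites of 199 bp, 18.9% of overexpression sites of 149 bp and 17.4% of those of 249 bp.

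The SF-1 motif, CAAGGTCA or CAAGGCCA, was found in 4 of 22 basal sites (18.2%, 5.19 to 40.3%), beside 12.7% of all basal sites, and in 7 of 28 overexpression sites (25%, 10.7 to 44.9%), beside 12.6%. It occurred in 3 of the 16 shared sites, 1 of 6 basal-only sites and 4 of 12 overexpression-only sites (33.3%, 9.92 to 65.1%), where 14% of all overexpression-only sites held it. All these intervals contain the share of the corresponding list. The 8 distinct matches are shown because they are the SF-1 sequences of these loci. Capitals mark the match, and TGACCTTG or TGGCCTTG in capitals is a match on the minus strand.
GNAS at MIR298, shared, chr20:57393064-57393101: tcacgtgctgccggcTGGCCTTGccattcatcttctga
PLAGL1 intron, shared, chr6:144278853-144278890: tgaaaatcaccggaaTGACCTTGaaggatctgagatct
PLAGL1 internal start, shared, chr6:144282625-144282662: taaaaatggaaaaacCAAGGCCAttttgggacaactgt
PLAGL1 in HYMAI, basal-only, chr6:144326273-144326310: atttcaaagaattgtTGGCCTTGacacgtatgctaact
DLK1 far upstream, overexpression-only, chr14:101147047-101147084: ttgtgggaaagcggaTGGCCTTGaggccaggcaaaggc
DLK1 upstream, overexpression-only, chr14:101177570-101177607: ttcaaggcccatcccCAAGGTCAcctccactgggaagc
GNAS-AS1 intron, overexpression-only, chr20:57407816-57407853: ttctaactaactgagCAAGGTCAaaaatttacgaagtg
PEG3 flank, overexpression-only, chr19:57397388-57397425: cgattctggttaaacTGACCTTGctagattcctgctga

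The 4 overexpression-only sites with an SF-1 match stood at places between 52.5% and 97.8%. The 4 overexpression-only sites listed earliest, at DLK1 (27.8%), GNAS (28.4%) and PLAGL1 (5.42% and 19.7%), held none, beside 14% of all overexpression-only sites. Of the 4 pairs with a large shift only that at MIR298 held a match. Over the whole lists, 12.1% of shared basal and 11.7% of shared overexpression sites held one. Groups of 4 are too few to be set apart from these shares. The AP-1 motif TGACTCA was found in 0 of 22 and 0 of 28 sites (upper limits of the intervals 15.4% and 12.3%), beside 6.95% and 5.58% of the lists. No SF-1 match overlapped a match to CTCF, AP-1 or YY1.

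The sites at the imprinted genes had the width usual for their lists, with medians of 224 bp (99 to 999, basal) and 249 bp (99 to 1199, overexpression), against 249 bp in each whole list. Their median place was 55.4% and 38.2%. The median width of shared sites was 199 bp (basal) and 274 bp (overexpression), and that of condition-only sites was 249 and 224 bp. Median GC content was 56.7% and 55.1%, against 45.4% and 49.9% over the lists.

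**Figure D4:**
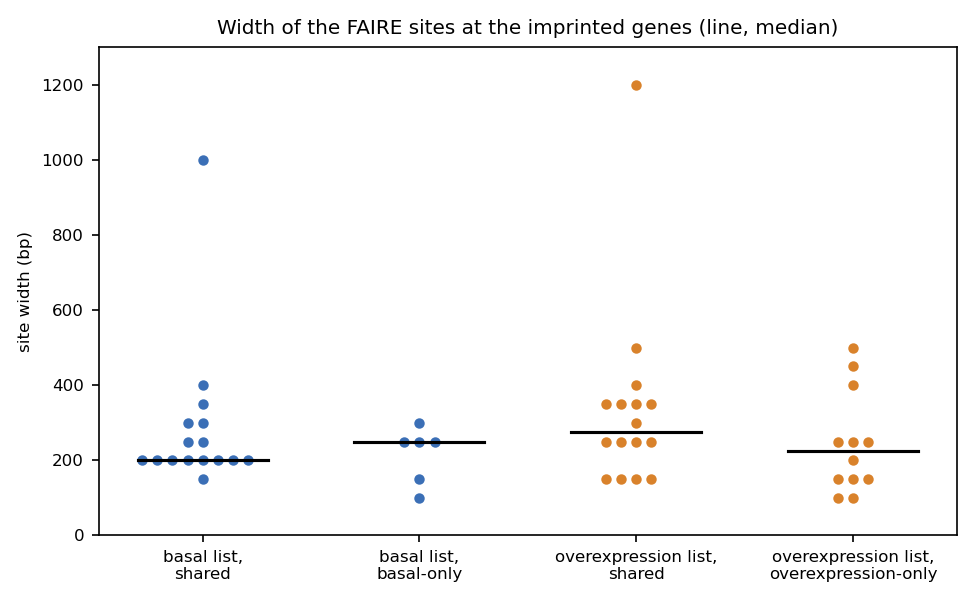
Width in bp (vertical axis) of each FAIRE site at the imprinted genes, by list and by class (horizontal axis), with 1 point per site and the median as a line. All points but 2 lie at or below 499 bp, and the PEG3 site stands apart at 999 bp (basal) and 1199 bp (overexpression).

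Within 1 kb of an annotated transcription start lay 13 of 22 basal sites (59.1%, 36.4 to 79.3%) and 13 of 28 overexpression sites (46.4%, 27.5 to 66.1%), against 35.0% and 39.7% of the lists. The basal interval lay above the share of its list, but without PLAGL1 (7 of 12 sites, 58.3%, 27.7 to 84.8%) it contained it. Of the sites near a start, 10 basal sites were at starts of 5 of the imprinted genes themselves (IGF2, KCNQ1OT1, GNAS, PLAGL1 and PEG3), and 9 overexpression sites were at starts of 4, IGF2 being without one. A canonical start was within 1 kb only at KCNQ1OT1, PLAGL1 and PEG3, the same genes whose control regions held sites. Sites farther than 10 kb from any start numbered 2 of 22 (basal) and 6 of 28 (overexpression). The share of such sites over the whole lists is not given here, so these counts show no shift between conditions.

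For comparison, 24 other imprinted genes and 21 genes of the IGF pathway were counted in the same way. Some of the 24 lie beside the imprinted genes examined above, so that sites were counted again. The windows of KCNQ1, ZIM2, GNAS-AS1 and RTL1 held sites already given under KCNQ1OT1, PEG3, GNAS and MEG3. The 24 genes are therefore not an independent set. Of the other imprinted genes, 17 had a basal site and 17 an overexpression site. These were not all the same genes, since SNRPN and DIRAS3 had only overexpression sites and ZDBF2 and NAP1L5 only basal sites. There were 5 genes without a site in either list, namely PHLDA2, SLC22A18, ASCL2, DIO3 and WT1. The first 3 of these lie on 11p15 together with CDKN1C, and the windows of PHLDA2 and SLC22A18 overlap that of CDKN1C. The share with a site was 70.8% in both lists, beside 78.6% and 78.2% of all genes. All 21 IGF pathway genes had a site in both lists. The receptor gene IGF1R had the most, with 16 basal and 12 overexpression sites, of which 7 in each were shared. IGF2R, which encodes a receptor that clears IGF2 from the cell surface, was counted in the other list and had 2 and 2. Of the 7 IGF binding protein genes, 5 had more overexpression than basal sites, namely IGFBP1 (5 against 3), IGFBP2 and IGFBP5 (3 against 2 each), IGFBP3 (4 against 2) and IGFBP6 (6 against 3), and IGFBP4 (2 against 4) and IGFBP7 (3 against 6) had fewer. IGFBP1 neighbours IGFBP3 and IGFBP2 neighbours IGFBP5, so that their windows overlap. Genes of these lists differ in length, and a longer gene has a longer window.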

How the data were processed

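FAIRE-seq was performed by the authors on H295R/TR SF-1 cells, and its 4 samples were a FAIRE library and an input DNA library for each of 2 conditions, grouped per the labels. Input libraries were not analysed here. The submitters' processing notes name CASAVA 1.8 and hg19. The FAIRE aligner, peak caller and threshold are not given in the sources used here. All sites carried the same score of 1000 in the lists the authors deposited, so site height and depth are unknown. Peak numbers ran in file order, and starts lay on a grid of 50 bp. Other columns held positions, given here 1-based on GRCh37.

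Gene models were those of GENCODE 44 lifted to GRCh37. Sites within 50 kb of a gene body were kept, sharing required 1 bp of overlap, and shares have exact (Clopper-Pearson) 95% intervals (Python 3.11.15, scipy 1.17.1). Sites are not replicates. No p-value was computed. Control region coordinates were written from general knowledge and checked for gene starts and CpG content. The motif search and overlap steps were tested on simulated data. Sites named were those at control regions, within 1 kb of a start of one of the 10 genes, in the H19 3′ flank, and the widest of each locus, and all other sites of the 10 genes were added after their values were seen. Sequences beyond those at control regions or with a CTCF or SF-1 match, and the short extracts, were likewise added afterwards. The sequence of the shared PLAGL1 promoter site, which overlaps an annotated UTR, is not printed, and that of 1 other control-region site is not reported here. The genes and lists were chosen with earlier results of these data known. Alternatives covered the window, transcript set, width, list length, overlap, motif and start distance.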

Additional observations from a re-analysis of the deposited data

How the results depend on the processing

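Over 10 results and 82 alternatives, 68 values stayed within a factor of 1.5 (counts) or the counting interval (shares) and 14 did not. The counting intervals are wide, so a share that stayed within its interval was not thereby stable. For example, the shared part of the basal sites went from 72.7% to 54.5% among wide sites and still stayed within it. Counting gene bodies only left 12 basal and 13 overexpression sites. Keeping sites at least as wide as the pooled median of 249 bp left 11 and 18, and keeping the first 50% of each list left 8 and 16. Leaving out PLAGL1, an alternative chosen after seeing the data, left 12 basal and 19 overexpression sites, with 75% and 47.4% shared. The shared part of the overexpression sites was 33.3% (6 of 18) among the wide sites and 31.3% (5 of 16) in the first 50% of the list. In these settings both lists were cut, so a site counted as shared only if its partner was kept too. These shares are therefore not those of wide or early sites under the definition of shared used above. With wide sites only, 2 basal sites remained at control regions. The CTCF share of the basal sites was 0% in gene bodies, among wide sites, with 0 mismatches and without PLAGL1, because 1 site carried it. No paired analysis was possible because each condition had 1 FAIRE library. Depth is unknown and the lists had no replicates, so a site absent from a list may have been below an unstated threshold.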
